A study of Sus scrofa with 32 samples.

Results

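The genes described here are a list of 39 extracellular matrix and fibroblast genes, listed by name and function. They were read through 3 histone marks in pig satellite cells, the resident stem cells of skeletal muscle. Of the 39, 38 were found in the RefSeq gene table of Sscrofa11.1 and 37 lay on a placed chromosome, out of 19550 protein-coding genes so placed. COL6A1 was not matched and COL6A2 lay on an unplaced sequence, so both are not analysed here. Each gene was measured as the kb of DNA under the authors' peaks in its span plus 5 kb on each side. The fits used the log2 of that length in base pairs plus 500. For a group without any listed base those 500 bp set the size of the log2 change and the group adds no spread, so lengths and the adjusted p are given there.

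CUT&Tag, which cuts and tags the DNA beside an antibody-bound histone, was used for H3K4me3, H3K27ac and H3K27me3. Each mark had 2 libraries in each of 4 groups: untreated cells (WT) and cells given SGC-CBP30 (CBP), at 0 h and at 60 h. Per the labels, 0 h is the proliferating stage, with 48 h of inhibitor, and 60 h the differentiating stage, with 60 h of inhibitor. Its dose is labelled 5 uM/ml, a unit whose meaning is not settled by the labels. SGC-CBP30 is a bromodomain inhibitor of CBP and p300, which are histone acetyltransferases, so the letters CBP name a treatment and not a genotype. No gene was deleted or added in any group as labelled. The cell line field and the growth protocol name C3H cells in RPMI beside the pig organism and the satellite cell field. The treatment field reads proliferation at 60 h as well, so time was taken from the titles. Nothing says that the 2 libraries of a group came from separate cultures, so p-values measure the spread between these libraries, which may be technical.

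H3K4me3 marks the start of active or poised genes, H3K27ac marks active promoters and enhancers, and H3K27me3 is laid down by Polycomb at silenced genes. The extracellular matrix is the mesh of collagens, glycoproteins and proteoglycans around cells, crosslinked by lysyl oxidases and cut by metalloproteases that TIMP proteins inhibit. In muscle, fibroblasts and fibro-adipogenic progenitors lay down most of the interstitial matrix, and satellite cells rest on a basement membrane rich in type IV collagen. Cultured myoblasts also make fibrillar collagen, fibronectin and vimentin, so none of these genes alone separates the cell types.

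The libraries differed in how much was called, and every value below moves with that. Mean covered length was 21.9 Mb in WT 0 h, 17.3 Mb in CBP 0 h, 26.97 Mb in WT 60 h and 27.6 Mb in CBP 60 h for H3K4me3. For H3K27ac it was 12.3, 5.53, 19.1 and 10.5 Mb in that order, and for H3K27me3 it was 2.11, 29.9, 5.96 and 9.89 Mb. The H3K27me3 lists of WT 0 h were short, with 1338 and 2660 peaks over 1.11 and 3.12 Mb. The sources used here give no read depth. Of 8 satellite cell and myoblast markers, 6 to 8 had H3K4me3 in both libraries of every group. In H3K27ac 5, 3, 7 and 4 of them did, in the order WT 0 h, CBP 0 h, WT 60 h and CBP 60 h. MYOD1, CDH15 and DES were at 0 in H3K27ac in WT 0 h. Of 8 endothelial markers 7 or all were at 0 in H3K4me3 in every group. In H3K27ac TEK had 0.516 and 0.493 kb and CDH5 0.434 and 0.306 kb in WT 0 h, with the other 6 at 0. Of the 8 blood and immune markers, PTPRC, CD3E, LYZ and CSF1R were at 0 in H3K4me3 in every group, but the others were not. CD68 had 4.22 to 6.37 kb and CD79A 2.65 to 4.37 kb in all 8 libraries. SPI1 had 0.841 to 1.03 kb in the 60 h libraries, and AIF1 had short lengths in some libraries. In H3K27ac CSF1R had 0.452 to 0.664 kb in the 60 h libraries. Of 6 adipocyte markers, PPARG (0.914 to 1.36 kb) and CEBPA (0.398 to 1.01 kb) had H3K4me3 in all 8 libraries, and FABP4 and ADIPOQ had none. None of the 6 had H3K27ac in both libraries of a group. Of 8 fibroblast and fibro-adipogenic markers, all of them also members, 6 had H3K4me3 in both libraries of every group. LUM had none anywhere and DCN almost none. In H3K27ac 4, 2, 5 and 3 of the 8 did, in the order WT 0 h, CBP 0 h, WT 60 h and CBP 60 h. The summed H3K4me3 length of the 6 smooth muscle and pericyte markers was 5.87 kb in both WT 0 h libraries, 2.30 to 2.41 kb in CBP 0 h, 11.2 to 11.8 kb in WT 60 h and 6.58 to 7.37 kb in CBP 60 h, with MYH11 and RGS5 at 0 throughout. That of the satellite cell and myoblast markers was 26.6 to 26.997 kb, 14.7 to 14.9 kb, 41.9 to 44.9 kb and 34.3 to 35.9 kb in that order. These sums move with the members' lengths, and their part in the results was not tested. ACTA2, among the smooth muscle and pericyte markers, is itself a member, so that sum moves with the members partly by construction. It gave 2.73 and 2.52 kb of the sum in WT 0 h and 6.22 and 5.45 kb in WT 60 h.

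Most members carried an active promoter mark. Of the 37 genes, 4 had no H3K4me3 base in any of the 8 lists, 5 had no H3K27ac base and 27 had no H3K27me3 base. A gene entered a test if it had at least 200 bp in at least 2 of the 8 libraries of the mark, which 32 members passed for H3K4me3, 31 for H3K27ac and 9 for H3K27me3. Some passed only through 1 group, without whose 2 libraries they would have failed: ELN in H3K4me3 and DCN and BGN in H3K27ac through WT 60 h, TIMP3 in H3K27ac through CBP 60 h, and in H3K27me3 MMP2 through WT 60 h and BGN, PDGFRB, TWIST1, TCF21, LOXL2 and TIMP3 through CBP 0 h. The direction of their difference was fixed by that filter, so their lengths are given as a description with no p, although they stay in the counts. The 4 without H3K4me3 were LUM, POSTN, SPARC and FBLN1. DCN, the proteoglycan decorin, had 0.406 kb in replicate 1 of CBP 60 h and none elsewhere. The 5 without H3K27ac were LUM, THY1, PDGFRA, FBLN1 and TIMP1, and POSTN, the matricellular protein periostin, had 0.298 kb in replicate 2 of WT 0 h alone. THY1, PDGFRA and TIMP1 had H3K4me3 in all 8 libraries all the same. SPARC, a collagen-binding glycoprotein, was the reverse: it had H3K27ac in all 8 libraries, from 1.16 kb to 9.42 kb, and its nearest H3K4me3 peak lay 5.22 to 6.42 kb outside its span.

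The marks sat in different places on these genes. Between 67.2 and 76.7% of the members' H3K4me3 length lay within 2.5 kb of an end of a gene, and between 64.7 and 73.5% of their H3K27ac length lay further inside the gene. The gene table gives no strand, so both ends were treated alike. The windows of 15 of the 37 members also met the window of another protein-coding gene, and a peak there counts for both. Beside those named below, ELN met LIMK1, LOX LOC100525452, LOXL2 R3HCC1, COL5A2 WDR75, COL4A2 RAB20 and FN1 ATIC. TIMP1 met SYN1, TIMP2 CEP295NL and USP36, TIMP3 SYN3, and MMP14 MRPL52 and SLC7A7. COL4A1 and COL4A2, the chains of basement membrane collagen IV, overlap at their ends on chromosome 11. Their H3K4me3 came mainly from the same pair of regions, at 76993921 to 76997161 and 76997769 to 77000156, and they are 1 promoter seen through 2 windows rather than 2 observations.

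**Figure D1:**
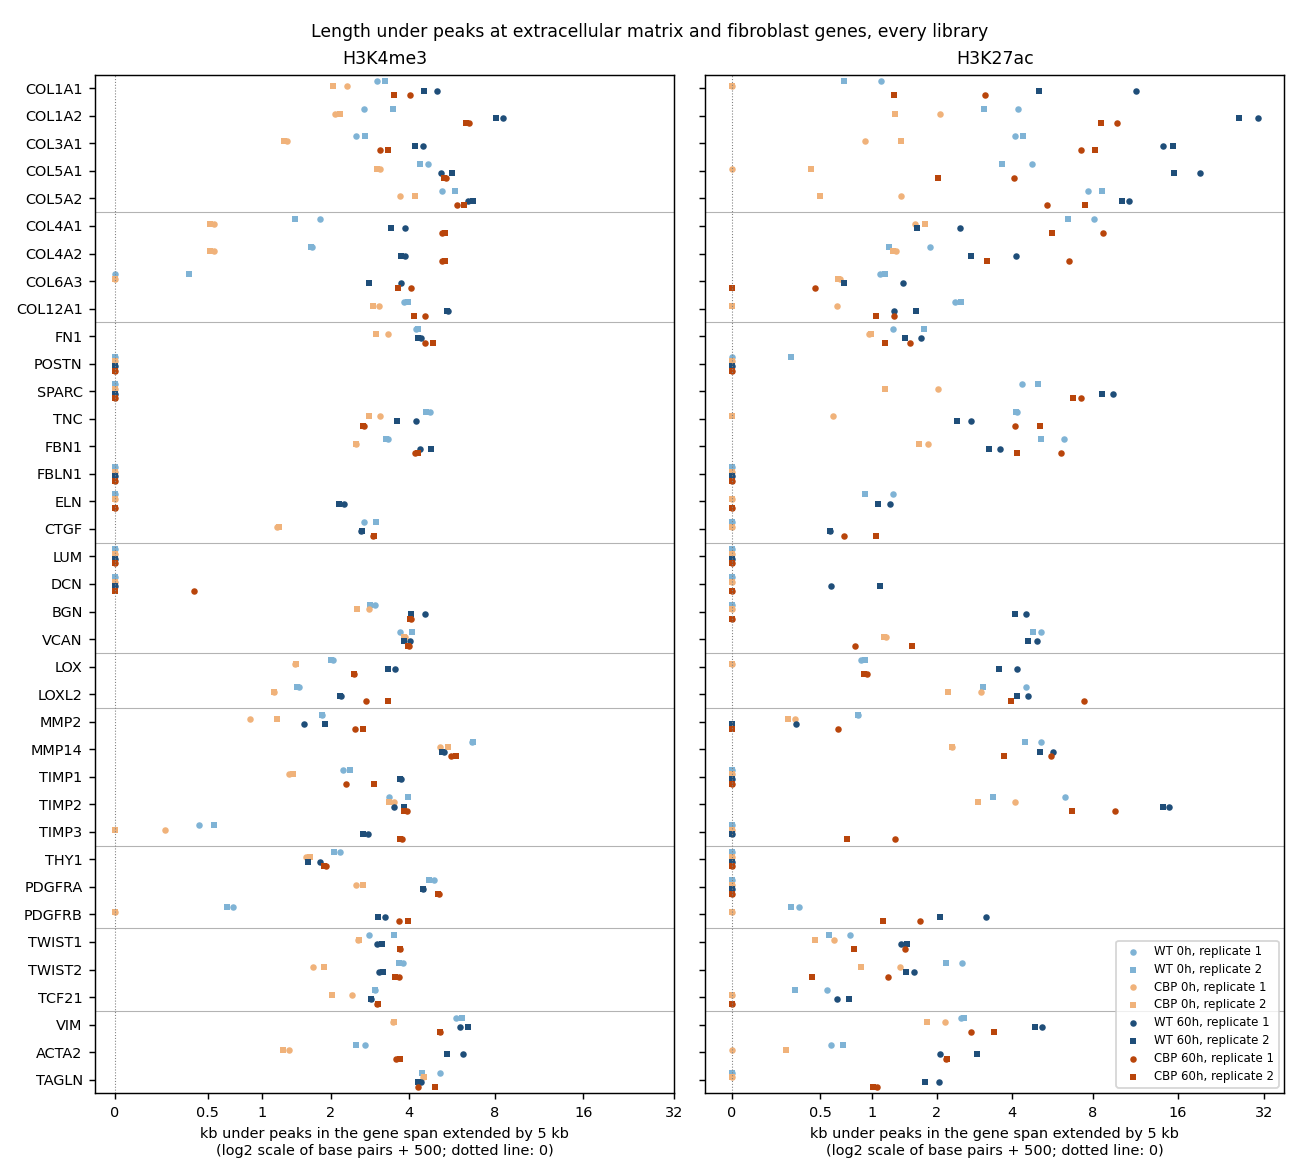
Length under peaks for each placed gene (rows, grouped by role) in each of the 8 libraries of H3K4me3 (left) and H3K27ac (right), in kb on a log2 scale of base pairs plus 500. Circles are replicate 1 and squares replicate 2, colours are the 4 groups, and the dotted line is 0. For COL1A2 the WT 60 h points lie at 26.2 and 30.5 kb of H3K27ac, while BGN is off the zero line in H3K27ac in WT 60 h alone.

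The first comparison asked how the matrix genes of untreated cells changed from 0 h, in proliferation, to 60 h, in differentiation. H3K27ac spread over the fibrillar collagen genes COL1A1, COL1A2, COL3A1 and COL5A1, over LOX and BGN, and over ACTA2 and TAGLN. H3K4me3 widened at the same 4 collagens, at the shared COL4A1 and COL4A2 promoter, and at COL6A3, ELN, TIMP3 and PDGFRB. In H3K4me3, 18 of 32 members rose and 4 fell at an adjusted p below 0.05 (limma, Benjamini-Hochberg), against 42.2% and 5.85% of all 13394 genes (22 called in all, against 48.1%). Their median log2 change was 0.33, and that of all genes 0.18. In H3K27ac, 15 of 31 rose and 2 fell, against 46.8% and 10.6% of 10294 genes (17 in all, against 57.5%), with a median of 0.72 against 0.69. The H3K27ac shares lay near those of all genes and are no result about the list. Groups of 2 libraries that do not overlap are common here: over time, with the inhibitor at 0 h and with it at 60 h they made up 77.8%, 74.4% and 62.7% of all genes tested in H3K4me3, 80%, 55.4% and 72.8% in H3K27ac and 43.4%, 80.8% and 50.8% in H3K27me3. Of the called members 1 of 22 in H3K4me3 (ELN) and 4 of 17 in H3K27ac (DCN, BGN, CTGF and TAGLN) had a group with no listed base.

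The split between higher and lower moved with the scaling. With quantile scaling, which makes the distributions of the libraries equal and moved the median of all genes from 0.18 to -0.07 in H3K4me3 and from 0.69 to 0.01 in H3K27ac, the members split 16 higher and 11 lower in H3K4me3, and 9 and 8 in H3K27ac. With lists cut to the same number of peaks they split 18 and 2, and 10 and 7 of 27 tested. Of all genes, 18.1% were higher and 27% lower in H3K4me3 with quantile scaling, and 20.7% and 20.9% in H3K27ac. With equal lists those shares were 42.6% and 4.55%, and 39.6% and 13.8%. The called members that lost their call were COL5A1 and COL5A2 with quantile scaling and COL1A1, TWIST2 and MMP14 with equal lists in H3K4me3. In H3K27ac they were DCN (0.43), SPARC (0.24), CTGF (0.14), TWIST1 (0.14), VIM (0.25) and ACTA2 (0.825) with quantile scaling, and COL5A1, CTGF and TWIST1 with equal lists, where DCN and BGN were not tested. Leaving out replicate 1 or 2 of WT 60 h left 10 or 11 H3K27ac calls in place of 17.

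Among the fibrillar collagens, which form the tensile fibres of connective tissue, all 5 rose in H3K4me3 and 4 of 5 in H3K27ac. COL1A2, a chain of type I collagen (gene 100626716, chromosome 9, 74174484 to 74210407), had 4.20 and 3.11 kb of H3K27ac in WT 0 h and 30.5 and 26.2 kb in WT 60 h. The groups did not overlap, and the log2 change was 2.80 ± 0.23 (SE, adjusted p = 0.000357). At 60 h the peaks covered 61.7% of the window on average, against 7.96% at 0 h. At 0 h they sat at the low-coordinate end and in a few interior spots, and at 60 h they formed a near-continuous run over the gene body, as the map of peaks shows. Its H3K4me3 went from 2.71 and 3.50 kb to 8.59 and 8.11 kb, with no overlap (log2 change 1.31 ± 0.10, adjusted p = 0.000192).

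COL1A1, the other type I chain, had 1.11 and 0.701 kb of H3K27ac at 0 h and 11.4 and 5.06 kb at 60 h. The groups did not overlap, although the 60 h libraries stood far from each other (log2 change 2.55 ± 0.49, adjusted p = 0.00853), and the call was lost without replicate 2 of WT 0 h (log2 change 2.34). COL3A1, the collagen of early granulation tissue, went from 4.10 and 4.40 kb to 14.2 and 15.5 kb without overlap (log2 change 1.69 ± 0.16, adjusted p = 0.000626). COL5A1, a chain of the type V collagen that nucleates fibrils, went from 4.78 and 3.67 kb to 19.2 and 15.5 kb, again without overlap (log2 change 1.92 ± 0.42, adjusted p = 0.0125). At 0 h its peaks were centred within 19.4 kb of the low-coordinate end, and at 60 h both WT libraries also had a cluster around 114 to 133 kb from that end. The COL5A1 call was lost when peaks near the gene ends alone were counted (1.87), without replicate 2 of WT 0 h (1.75) or replicate 1 of WT 60 h (1.77) and with lists of equal peak number (0.89). COL5A2 had 7.68 and 8.63 kb at 0 h and 10.7 and 10.1 kb at 60 h and was not called (log2 change 0.34, adjusted p = 0.41). Its H3K4me3 rose by a log2 of 0.23, and that of COL5A1 by 0.25, in directions that quantile scaling turns (-0.01 and -0.004).

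Of the 4 other collagens tested in H3K27ac, 0 rose and 1 fell. COL4A2 had 1.87 and 1.21 kb at 0 h and 4.13 and 2.76 kb at 60 h, without overlap, and was not called (log2 change 0.95 ± 0.37, adjusted p = 0.0765). COL4A1 (gene 100515336, chromosome 11, 76858332 to 76997409) went the opposite way in H3K27ac, from 8.04 and 6.49 kb at 0 h to 2.49 and 1.63 kb at 60 h, with no overlap (log2 change -1.61 ± 0.26, adjusted p = 0.00473). The interior sites at 43.7, 75.0 and 79.8 kb from the low end had peaks in both WT 0 h libraries and in neither WT 60 h library. Over the same hours its H3K4me3 went from 1.81 and 1.42 kb to 3.85 and 3.42 kb (log2 change 0.97 ± 0.10, adjusted p = 0.000502). The 2 marks at this gene therefore moved in opposite directions in untreated cells. COL4A2, read through the shared promoter, went from 1.67 and 1.66 kb of H3K4me3 to 3.85 and 3.74 kb (log2 change 0.98 ± 0.04, adjusted p = 1.83e-05).

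COL6A3, a chain of the beaded-filament collagen VI, had none and 0.372 kb of H3K4me3 at 0 h and 3.74 and 2.82 kb at 60 h, all at the high-coordinate end of the gene. The groups did not overlap (log2 change 2.51 ± 0.26, adjusted p = 0.00057). COL12A1, a fibril-associated collagen, also rose in H3K4me3, by a log2 of 0.45.

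Of the glycoproteins, ELN, which encodes elastin, had no listed H3K4me3 base at 0 h and 2.27 and 2.17 kb at 60 h, in a single region at chromosome 3, 11214409 to 11216692. It is the only member whose H3K4me3 was listed in both libraries of WT 60 h and in no library of any other group. Its H3K27ac, a few kb further inside the gene at 11218798 to 11220267, was already there at 0 h: 1.27 and 0.924 kb, against 1.23 and 1.08 kb at 60 h, with overlapping groups (log2 change 0.06, adjusted p = 0.75). FBN1, the microfibril protein fibrillin 1, rose in H3K4me3 (log2 change 0.42, adjusted p = 0.0011) and fell in H3K27ac (log2 change -0.66, adjusted p = 0.035). SPARC rose in H3K27ac, and TNC, the injury-linked glycoprotein tenascin C, fell in H3K4me3. CTGF, a YAP and TGF-beta target, had no H3K27ac at 0 h and 0.577 and 0.581 kb at 60 h, a difference that goes to 0.00 with lists of equal peak number. FN1, or fibronectin, was not called in either mark (adjusted p = 0.74 in H3K4me3 and 0.80 in H3K27ac).

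BGN, the small proteoglycan biglycan (gene 397396, chromosome X, 124282048 to 124295450), had no H3K27ac base in either WT 0 h library and 4.53 and 4.11 kb in the WT 60 h libraries. Those bases fell in 4 regions, of which 3 were centred within 5 kb of its low-coordinate end. Its window also meets that of LOC100623862. BGN already had 2.97 and 2.86 kb of H3K4me3 at 0 h, and 4.56 and 4.07 kb at 60 h, so the promoter mark was there before H3K27ac was listed. DCN had no H3K27ac at 0 h and 0.590 and 1.09 kb at 60 h. VCAN, the large proteoglycan versican, was called in neither mark.

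LOX, the lysyl oxidase that crosslinks collagen and elastin, had 0.878 and 0.919 kb of H3K27ac at 0 h and 4.18 and 3.58 kb at 60 h. The groups did not overlap (log2 change 1.64 ± 0.11, adjusted p = 0.000146), and H3K4me3 rose as well, from 2.04 and 2.01 kb to 3.54 and 3.33 kb (log2 change 0.64 ± 0.04, adjusted p = 0.000113). LOXL2, a related enzyme, rose in H3K4me3 alone of the 2 active marks (log2 change 0.45).

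The inhibitors of metalloproteases differed among themselves. TIMP3, which binds matrix, had 0.439 and 0.545 kb of H3K4me3 at 0 h and 2.80 and 2.68 kb at 60 h, without overlap (log2 change 1.71 ± 0.17, adjusted p = 0.000464). TIMP1 rose by a log2 of 0.59 in H3K4me3. TIMP2 had 6.32 and 3.36 kb of H3K27ac at 0 h and 14.9 and 14.2 kb at 60 h (log2 change 1.55 ± 0.33, adjusted p = 0.0118), without overlap. That call was lost when either WT 60 h library was left out (1.51 and 1.58). MMP14, the membrane protease that activates MMP2, fell in H3K4me3 by 0.32 on the log2 scale.

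PDGFRB, the PDGF receptor of pericytes and mesenchymal cells, had 0.711 and 0.658 kb of H3K4me3 at 0 h and 3.25 and 3.06 kb at 60 h, with no overlap (log2 change 1.63 ± 0.06, adjusted p = 1.19e-05). Its H3K27ac went from 0.348 and 0.296 kb to 3.17 and 2.06 kb (log2 change 1.90 ± 0.22, adjusted p = 0.00148), a call lost when peaks near the gene ends alone were counted (0.89, adjusted p = 0.283). PDGFRA, the receptor that marks fibro-adipogenic progenitors, had 4.90 and 4.71 kb of H3K4me3 at 0 h and 4.48 and 4.49 kb at 60 h and was not called (adjusted p = 0.14). TWIST1, a basic helix-loop-helix factor of mesenchyme, rose in H3K27ac by a log2 of 0.72, which lists of equal peak number turn to -0.46. THY1, a fibroblast surface protein, and TWIST2, a mesenchymal transcription factor, fell in H3K4me3 by 0.25 and 0.22 on the log2 scale.

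ACTA2, smooth muscle actin, which is also expressed early in muscle differentiation, went from 2.73 and 2.52 kb of H3K4me3 to 6.22 and 5.45 kb (log2 change 1.02 ± 0.07, adjusted p = 0.000128). TAGLN, its calponin-related partner, had no H3K27ac at 0 h and 2.05 and 1.78 kb at 60 h (adjusted p = 8.87e-05), and ACTA2 rose in H3K27ac too (log2 change 1.37). The TAGLN window meets those of PCSK7 and SIDT2, and the ACTA2 window that of STAMBPL1. VIM, the intermediate filament vimentin, rose in H3K27ac by a log2 of 0.86 and was not called in H3K4me3.

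**Figure D2:**
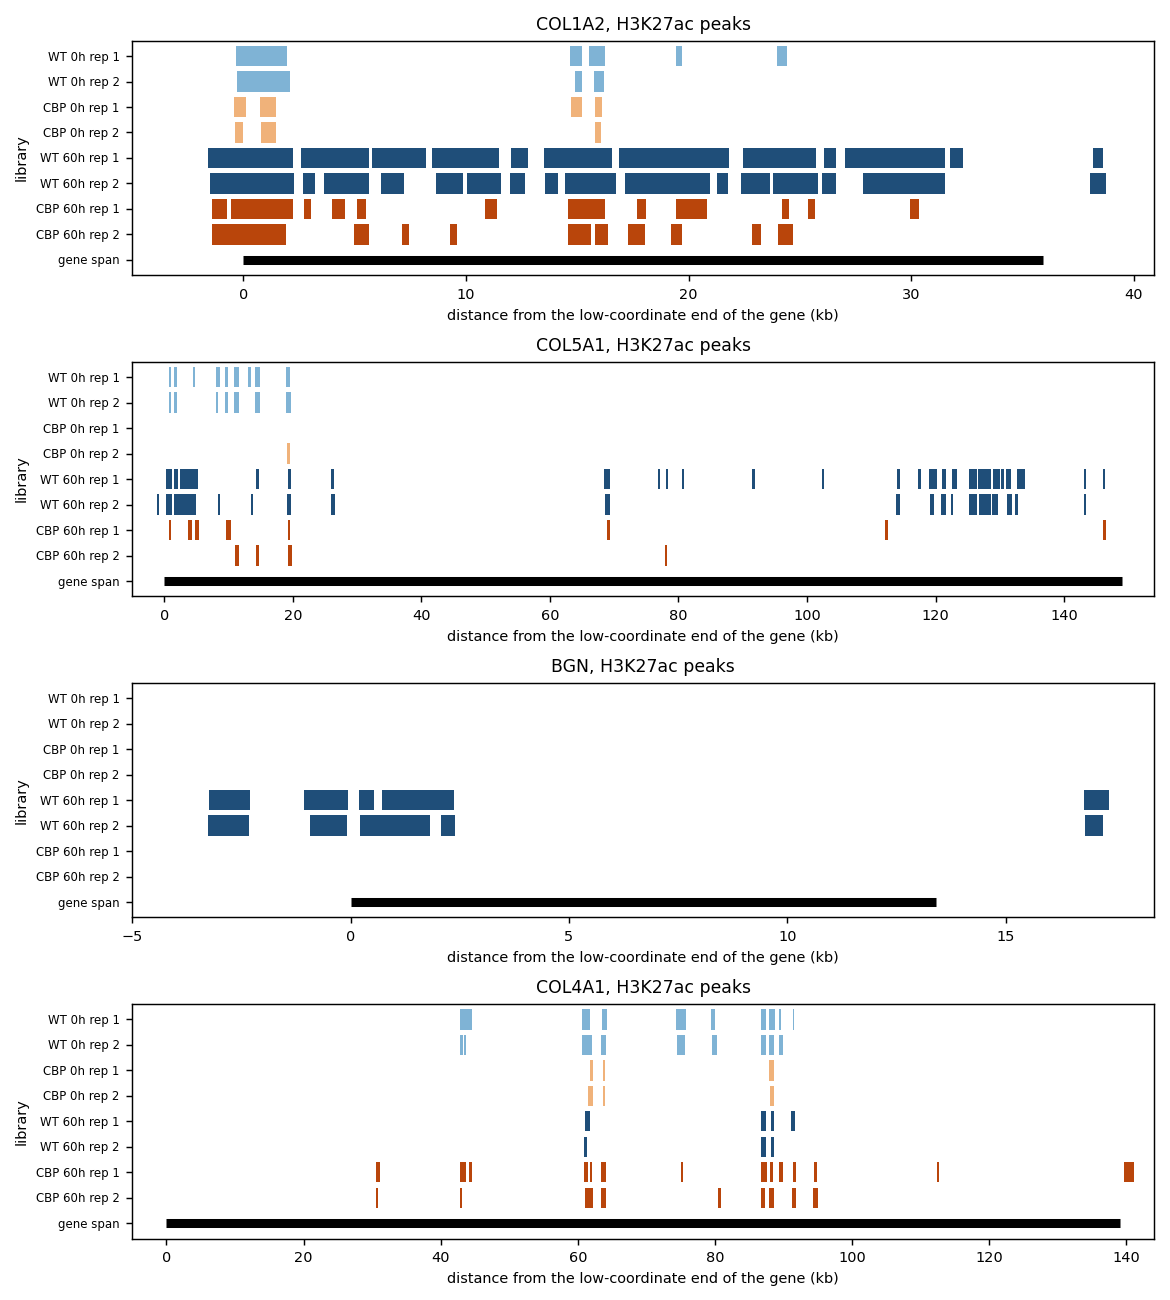
Position of H3K27ac peaks (coloured bars, 1 row per library) along COL1A2, COL5A1, BGN and COL4A1, as distance in kb from the low-coordinate end of the gene, with the gene span in black. COL1A2 is covered by long runs in WT 60 h and by shorter, separate peaks in CBP 60 h, BGN has peaks in WT 60 h alone, and COL4A1 has fewer in WT 60 h than in WT 0 h or CBP 60 h.

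The second comparison set inhibitor-treated against untreated cells at 0 h. H3K4me3 was shorter on most members tested and H3K27ac on 15 of 31. In H3K4me3, 25 of 32 members fell and 0 rose, against 41.7% and 1.19% of all genes (42.9% called in all). Their median log2 change was -0.44, and that of all genes -0.19. In H3K27ac, 15 of 31 fell and 0 rose, against 32.6% and 1.4% of all genes (34% in all), with a median of -0.89 against -0.46. At an unadjusted p below 0.05 in limma, 26 and 18 members were lower and still 0 higher. The share of all genes at that unadjusted p was not computed. Among the genes with a mean length of at least 1 kb, 13 of 22 members fell in H3K27ac against 50.6% of all such genes, and in H3K4me3 25 of 31 against 44.6%, so in H3K27ac the members' share is nearer to that of other long-marked genes. The summed length of the members in CBP over that in WT was 0.686 for H3K4me3 and 0.337 for H3K27ac, beside ratios of 0.789 and 0.451 for all covered DNA.

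With quantile scaling, which moved the median of all genes to 0.06 in H3K4me3 and 0.08 in H3K27ac, 13 members fell and 2 rose in H3K4me3, and 8 fell and 1 rose in H3K27ac. With lists of equal peak number, 19 fell in H3K4me3 and 8 of 27 in H3K27ac, with none higher. Of all genes, 13.6% fell and 16% rose in H3K4me3 with quantile scaling, and 15.5% and 8.91% in H3K27ac. With equal lists 34.7% fell and 1.74% rose in H3K4me3, and 17.1% and 5.85% in H3K27ac. Of the 25 H3K4me3 calls, 12 were lost with quantile scaling (COL1A1, COL1A2, COL5A2, COL12A1, FN1, THY1, TCF21, LOXL2, FBN1, MMP2, MMP14 and TIMP3) and 6 with equal lists (COL1A2, COL5A1, PDGFRB, FBN1, MMP2 and MMP14). Of the 15 H3K27ac calls, 7 were lost with quantile scaling (COL1A2, COL3A1, COL12A1, SPARC, TCF21, MMP14 and ACTA2) and 7 with equal lists (COL1A2, COL3A1, COL4A1, SPARC, VCAN, MMP14 and ACTA2), where TCF21 and ELN were not tested.

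In H3K4me3 all 3 surface receptors fell, as did 5 of 5 fibrillar and 3 of 4 other collagens, and 4 of 5 proteases and inhibitors. PDGFRB had 0.711 and 0.658 kb in WT and no listed base in CBP (adjusted p = 0.000105), a call that was lost when weaker peaks, below a -log10 q of 5, were dropped. COL4A2 had 1.67 and 1.66 kb in WT and 0.548 and 0.520 kb in CBP, without overlap (log2 change -1.07 ± 0.04, adjusted p = 6.48e-05), and COL4A1 had 1.81 and 1.42 kb and the same 0.548 and 0.520 kb (log2 change -1.02 ± 0.10, adjusted p = 0.000657). CTGF had 2.72 and 3.001 kb in WT and 1.18 and 1.21 kb in CBP (log2 change -0.99 ± 0.05, adjusted p = 0.000127). All of these groups were apart.

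TWIST2 had 3.81 and 3.68 kb of H3K4me3 in WT and 1.70 and 1.88 kb in CBP (log2 change -0.89 ± 0.05, adjusted p = 0.000178). COL3A1 had 2.52 and 2.72 kb in WT and 1.31 and 1.27 kb in CBP (log2 change -0.80 ± 0.06, adjusted p = 0.000316), and ACTA2 had 2.73 and 2.52 kb and 1.34 and 1.25 kb (log2 change -0.80 ± 0.07, adjusted p = 0.000552). In each the groups were apart. PDGFRA had 4.90 and 4.71 kb in WT and 2.52 and 2.69 kb in CBP (log2 change -0.77 ± 0.04, adjusted p = 0.000163). VIM had 5.85 and 6.16 kb and 3.50 and 3.51 kb (log2 change -0.70 ± 0.05, adjusted p = 0.000225), and TIMP3 had 0.439 and 0.545 kb and 0.226 kb and none (log2 change -0.72 ± 0.17, adjusted p = 0.0154). These 3 were also without overlap, but the TIMP3 call was lost with quantile scaling (-0.27) and without replicate 2 of WT 0 h (-0.64). All 5 fibrillar collagens fell, with log2 changes from -0.80 to -0.44, and of these COL3A1 alone kept its call under both scalings. BGN, VCAN, TIMP2, TAGLN, TWIST1 and COL6A3 were not called.

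In H3K27ac 4 of 5 fibrillar collagens fell. COL5A1 had 4.78 and 3.67 kb in WT, and none and 0.430 kb in CBP (log2 change -2.78 ± 0.42, adjusted p = 0.00618). COL5A2, the longest of the 37 genes, had 7.68 and 8.63 kb in WT and 1.38 and 0.499 kb in CBP (log2 change -2.66 ± 0.32, adjusted p = 0.00334). COL3A1 had 4.10 and 4.40 kb in WT and 0.922 and 1.39 kb in CBP (log2 change -1.53 ± 0.16, adjusted p = 0.00202). In all 3 the groups were apart, but COL3A1 turned to 0.45 with lists of equal peak number and was not called with quantile scaling (-0.74). COL1A2 fell by 0.94 on the log2 scale, a direction that the same lists also turn (0.84), and COL1A1 had no base in CBP against 1.11 and 0.701 kb in WT and was not called (adjusted p = 0.075). When only peaks near the ends of the genes were counted, COL5A1 (-1.48), COL5A2 (-1.05) and ELN (-0.54) were no longer called.

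TNC had 4.19 and 4.15 kb of H3K27ac in WT, and 0.604 kb and none in CBP (log2 change -2.65 ± 0.38, adjusted p = 0.00525). COL12A1 had 2.39 and 2.53 kb in WT, and 0.641 kb and none in CBP (log2 change -1.97 ± 0.39, adjusted p = 0.0155), a call lost without either WT 0 h library (adjusted p = 0.0798 and 0.0715) and with quantile scaling (-1.42). COL4A1 had 8.04 and 6.49 kb in WT and 1.60 and 1.77 kb in CBP (log2 change -1.82 ± 0.26, adjusted p = 0.00561), a call lost with lists of equal peak number (-1.39, adjusted p = 0.0605). None of these groups overlapped.

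VCAN had 5.13 and 4.79 kb of H3K27ac in WT and 1.18 and 1.15 kb in CBP (log2 change -1.71 ± 0.22, adjusted p = 0.00389), a difference that goes to 0.03 with lists of equal peak number and is not called above a -log10 q of 5 (-1.08). FBN1 had 6.25 and 5.17 kb in WT and 1.83 and 1.68 kb in CBP (log2 change -1.46 ± 0.19, adjusted p = 0.00438). ELN and LOX had no listed base in CBP, against 1.27 and 0.924 kb (adjusted p = 0.000961) and 0.878 and 0.919 kb (adjusted p = 0.000645) in WT. All 4 genes were without overlap. SPARC, TCF21, MMP14 and ACTA2 also fell, and none of the 4 kept its call with quantile scaling (-0.54, -0.44, -0.07 and -0.23). With lists of equal peak number SPARC went to -0.003 and ACTA2 turned to 0.30.

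H3K27me3 went the other way at 0 h, in the whole genome as in the members. Of the 9 members tested, 7 were called higher and 0 lower (also 0 at an unadjusted p below 0.05 in limma), against 77.2% and 0% of 4203 genes. That count supports nothing about the members: 6 of the 7, all but FBLN1, had no listed base in WT and passed the filter only through CBP 0 h. Their summed length in CBP was 14.7 times that in WT, beside 14.2 times for all covered DNA. With quantile scaling, which moved the median of all genes to -0.11, 2 members rose and 2 fell, against 11.8% and 17.9% of all genes. The 5 fibrillar collagens, COL4A1, COL4A2, COL12A1, FN1, VIM, ACTA2 and TAGLN had no H3K27me3 base in any library.

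TWIST1 (gene 100516456, chromosome 9, 88286911 to 88290131), had 6.40 and 6.62 kb of H3K27me3 in the CBP 0 h libraries and none in the other 6 libraries. The peaks flanked the gene, in regions at 88274733 to 88286010 and 88290405 to 88294005. Between them the gene kept 2.58 and 2.59 kb of H3K4me3 in the same group, and in replicate 1 0.872 kb lay under both marks. FBLN1, the matrix glycoprotein fibulin 1, had no active mark in any library and had H3K27me3 in all 8. Its H3K27me3 was 2.68 and 7.53 kb in WT 0 h and 67.7 and 54.5 kb in CBP 0 h, or 62.5% of its window on average, without overlap (log2 change 3.60 ± 0.52, adjusted p = 0.00158).

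LOXL2 had no H3K27me3 in WT 0 h and 3.35 and 1.36 kb in CBP 0 h. TCF21, a transcription factor of fibroblast lineages, had none in WT and 3.81 and 0.872 kb in CBP, and TIMP3 had none in WT and 1.21 and 0.896 kb in CBP. BGN had none in WT and 1.40 and 0.438 kb in CBP, and PDGFRB none and 1.21 and 0.204 kb. With quantile scaling 5 of the 7 calls were lost: TIMP3, BGN and PDGFRB turned, and LOXL2 (0.24) and TCF21 (0.21) were no longer called. In addition, the calls of BGN and PDGFRB were lost without either WT 0 h library. Without replicate 1 or replicate 2 of CBP 0 h, TWIST1, TCF21, TIMP3 and PDGFRB had 1 library of at least 200 bp left and were no longer tested. The loss of those calls was thus fixed by the filter. Overlap between H3K27me3 and H3K4me3 was also listed for TCF21 (0.894 kb, replicate 1), LOXL2 (0.768 and 0.380 kb) and PDGFRA (0.335 kb, replicate 1) in CBP 0 h, and for PDGFRA in replicate 1 of CBP 60 h (0.289 kb). No WT library had any such overlap on a member.

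**Figure D3:**
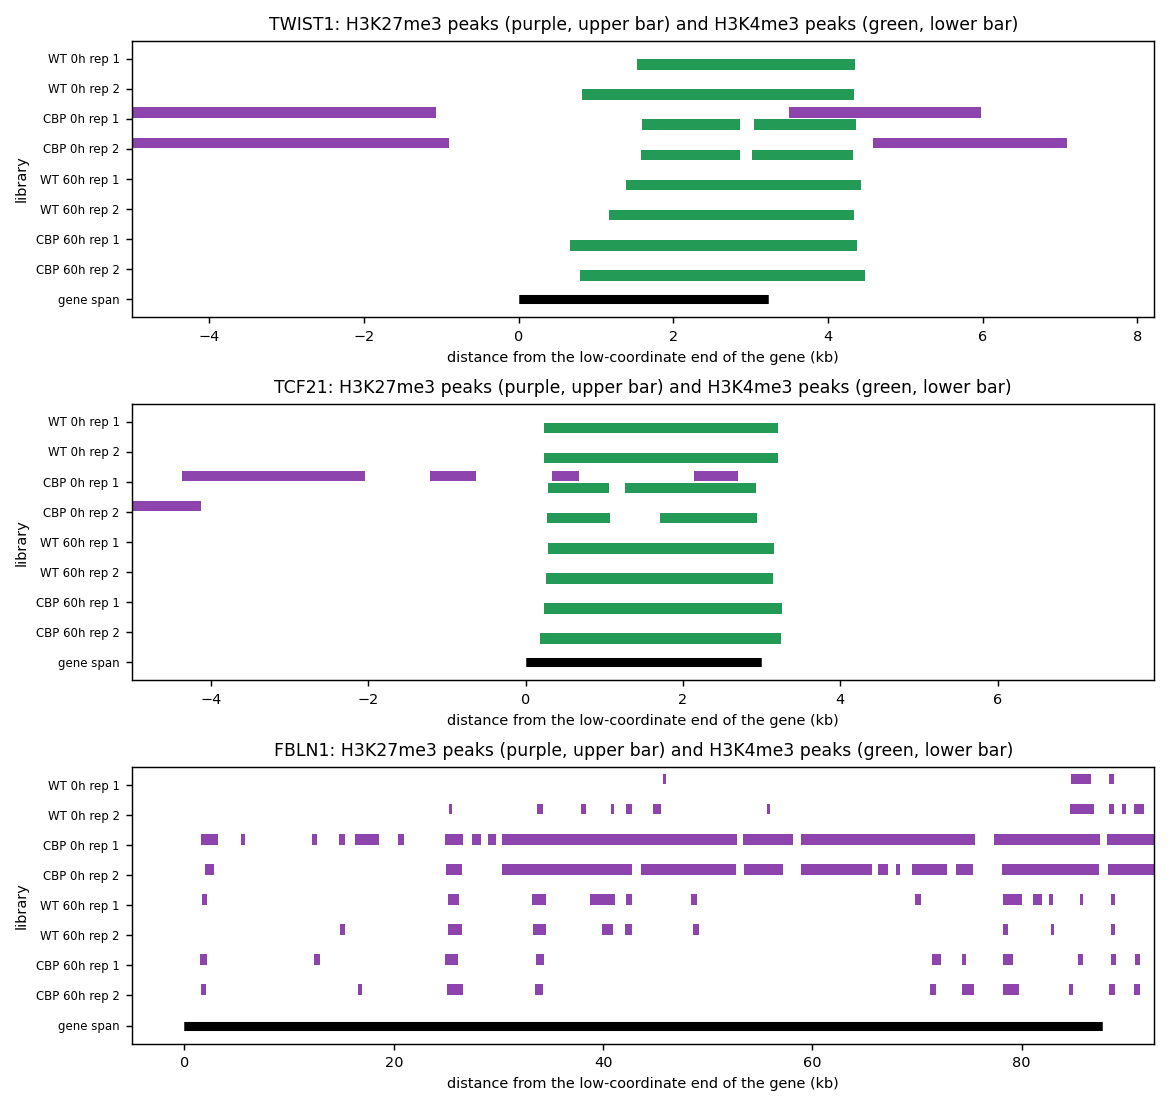
Position of H3K27me3 peaks (purple) and H3K4me3 peaks (green) along TWIST1, TCF21 and FBLN1 in each library, as distance in kb from the low-coordinate end of the gene, with the gene span in black. H3K27me3 flanks TWIST1 in the CBP 0 h libraries alone and covers most of FBLN1 there, where the summed lengths are 67.7 and 54.5 kb.

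The third comparison set inhibitor-treated against untreated cells at 60 h. In H3K4me3 the only region of ELN was listed in WT and not in CBP, and the other called members moved by at most 0.61 on the log2 scale. H3K27ac was shorter on 4 of 5 fibrillar collagens, on BGN, DCN and VCAN, on LOX and on ELN, and was longer on COL4A1 and TIMP3. In H3K4me3, 6 of 32 members rose and 8 fell, against 10.3% and 7.36% of all genes (17.7% in all), with a median log2 change of 0.07 against 0.04. That count fell to 5 without replicate 1 or replicate 2 of WT 60 h, and to 8 without replicate 1 or replicate 2 of CBP 60 h. In H3K27ac, 2 of 31 rose and 12 fell, against 3.03% and 45.8% of all genes (48.8% in all), with a median of -0.65 against -0.72. A smaller share of members fell (38.7%) than of all genes, so the H3K27ac falls are no result about the list. Of members with a mean of at least 1 kb, 9 of 22 were called, against 51.3% of such genes. Of the 14 called, 5 (DCN, BGN, TCF21, TIMP3 and ELN) had a group with no listed base. DCN and BGN passed the filter only through WT 60 h and TIMP3 only through CBP 60 h, which fixed their direction. Quantile scaling, which moved the median of all genes from -0.72 to 0.03, gave 6 higher and 6 lower in H3K27ac, and lists of equal peak number gave 7 and 5. For H3K4me3 those splits were 4 and 10, and 5 and 9. Of all genes, 11.6% were higher and 13.4% lower in H3K27ac with quantile scaling, and 6.81% and 29.6% with equal lists. In H3K4me3 those shares were 9.17% and 9.17%, and 8.27% and 6.34%. In H3K27ac COL1A1, COL3A1, DCN, TCF21, VIM and TAGLN lost their call with quantile scaling, and COL1A2, COL3A1 and VCAN with equal lists, where DCN, BGN, TCF21 and ELN were not tested. Without replicate 1 of WT 60 h, 9 H3K27ac calls were left in place of 14.

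ELN had 2.27 and 2.17 kb of H3K4me3 in WT 60 h and no listed base in CBP 60 h. Its H3K27ac was 1.23 and 1.08 kb in WT and unlisted in CBP (adjusted p = 0.000381), as it was at 0 h, a call lost when peaks near the gene ends alone were counted (-0.46, adjusted p = 0.18). Among the other H3K4me3 differences, ACTA2 had 6.22 and 5.45 kb in WT and 3.58 and 3.69 kb in CBP (log2 change -0.61 ± 0.07, adjusted p = 0.00288). LOX had 3.54 and 3.33 kb and 2.49 and 2.49 kb (log2 change -0.40 ± 0.04, adjusted p = 0.0024). Both were without overlap and both are genes that rose at 60 h in untreated cells.

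COL3A1 had 4.48 and 4.19 kb of H3K4me3 in WT and 3.10 and 3.33 kb in CBP (log2 change -0.38 ± 0.06, adjusted p = 0.00769). TNC had 4.22 and 3.59 kb and 2.70 and 2.70 kb (log2 change -0.46 ± 0.08, adjusted p = 0.0109). TIMP1 had 3.74 and 3.71 kb and 2.32 and 2.97 kb (log2 change -0.44 ± 0.10, adjusted p = 0.0268). None of these groups overlapped. The calls of COL3A1 (-0.34 without replicate 1 of WT 60 h), TNC (-0.46 without either CBP 60 h library) and TIMP1 (-0.43 and -0.44 without either WT 60 h library) each hung on a library.

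The shared collagen IV promoter was higher in CBP than in WT at 60 h: COL4A2 had 3.85 and 3.74 kb of H3K4me3 in WT and 5.26 and 5.38 kb in CBP (log2 change 0.44 ± 0.04, adjusted p = 0.00137). COL4A1, whose window takes in nearly the same peaks, had 3.85 and 3.42 kb and the same 5.26 and 5.38 kb (log2 change 0.50 ± 0.10, adjusted p = 0.0178). MMP2, the gelatinase A, had 1.55 and 1.90 kb in WT and 2.51 and 2.70 kb in CBP (log2 change 0.48 ± 0.11, adjusted p = 0.0345), and LOXL2 had 2.19 and 2.18 kb and 2.76 and 3.34 kb (log2 change 0.40 ± 0.08, adjusted p = 0.0176). All 4 were without overlap. The COL4A1 and MMP2 calls were lost when any of the 4 libraries at 60 h was left out (0.42 to 0.57 and 0.37 to 0.60), and the LOXL2 call without either WT 60 h library (0.40 and 0.39). PDGFRA and PDGFRB rose by a log2 of 0.17 and 0.24, and neither was called with quantile scaling (0.12 and 0.19) nor PDGFRB with equal lists (adjusted p = 0.734).

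In H3K27ac, COL1A2 had 30.5 and 26.2 kb in WT 60 h and 9.78 and 8.53 kb in CBP 60 h (log2 change -1.58 ± 0.23, adjusted p = 0.00361). The CBP libraries kept the peak at the low-coordinate end, with 3.44 and 3.31 kb against 3.86 and 3.75 kb in WT, and lost most of the run over the gene body. COL5A1 had 19.2 and 15.5 kb in WT and 4.08 and 2.03 kb in CBP (log2 change -2.38 ± 0.42, adjusted p = 0.00722), and COL1A1 had 11.4 and 5.06 kb and 3.16 and 1.29 kb (log2 change -1.67 ± 0.49, adjusted p = 0.0394). The groups of all 3 genes were apart. The COL1A2 call was lost when lists were cut to equal peak number (-2.28) or to a -log10 q of at least 5 (-2.48), although the change was larger there. The COL1A1 call was lost without replicate 1 of WT 60 h (-1.12) or replicate 2 of CBP 60 h (-1.16) and with quantile scaling (-0.97), and that of COL5A1 without replicate 1 of WT 60 h (-2.24). COL3A1 fell by 0.91 on the log2 scale, a call lost with quantile scaling (-0.40) and with equal lists (-0.825), and COL5A2 was not called.

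BGN had 4.53 and 4.11 kb of H3K27ac in WT 60 h and no listed base in CBP 60 h, while its H3K4me3 was 4.08 and 4.04 kb in CBP and was not called. DCN had 0.590 and 1.09 kb in WT and none in CBP. VCAN had 4.99 and 4.59 kb in WT and 0.809 and 1.56 kb in CBP (log2 change -1.69 ± 0.22, adjusted p = 0.00264). None of the 3 groups overlapped, though VCAN turned to 0.18 with lists of equal peak number. LOX had 4.18 and 3.58 kb in WT and 0.941 and 0.909 kb in CBP (log2 change -1.62 ± 0.11, adjusted p = 0.000184), beside 0.878 and 0.919 kb in WT 0 h. TCF21, VIM and TAGLN also fell, of which VIM (0.03) and TAGLN (0.12) turned with quantile scaling.

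H3K27ac was longer with the inhibitor on COL4A1 and TIMP3. COL4A1 had 2.49 and 1.63 kb in WT 60 h and 8.70 and 5.66 kb in CBP 60 h (log2 change 1.58 ± 0.26, adjusted p = 0.00629), without overlap. TIMP3 had none in WT 60 h and 1.31 and 0.736 kb in CBP 60 h, and none at 0 h in either group. The region seen in both CBP libraries lay 11.5 kb inside the low-coordinate end, at chromosome 5, 12196881 to 12197728.

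In H3K27me3, 1 member was called higher at 60 h than at 0 h in WT, against 20.9% of all genes (21.5% called in all), and the same gene alone was called lower with the inhibitor at 60 h, against 2.62% (14.7% in all). Of the 2 members with a mean of at least 1 kb, neither was called in these comparisons, against 31.3% and 11.2% of such genes, and both were called with the inhibitor at 0 h, against 96.6%. No member fell with time (0.619% of all genes) or rose with the inhibitor at 60 h (12.1%), nor did any at an unadjusted p below 0.05 in limma. With quantile scaling 1 rose and 3 fell with time, against 13% and 20.7% of all genes. The gene was MMP2, with 0.828 and 0.579 kb in WT 60 h and none in the other 6 libraries, so that both directions follow from the filter. That region, on chromosome 6 at 30090899 to 30091726, lay outside the gene near the edge of the window, which also meets the window of LPCAT2. The call over time was lost without replicate 1 of WT 0 h and the inhibitor call without either CBP 60 h library. On peaks above a -log10 q of 5, 0 members were called in limma, but so few peaks reached it that this decides nothing. In the lists of WT 0 h 0 to 1.05% did, in WT 60 h 0.0648 to 0.258% and in CBP 60 h 0.146 to 0.181%. FBLN1 had 10.4 and 6.37 kb in WT 60 h and 6.996 and 7.87 kb in CBP 60 h and was not called (adjusted p = 0.97).

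**Figure D4:**
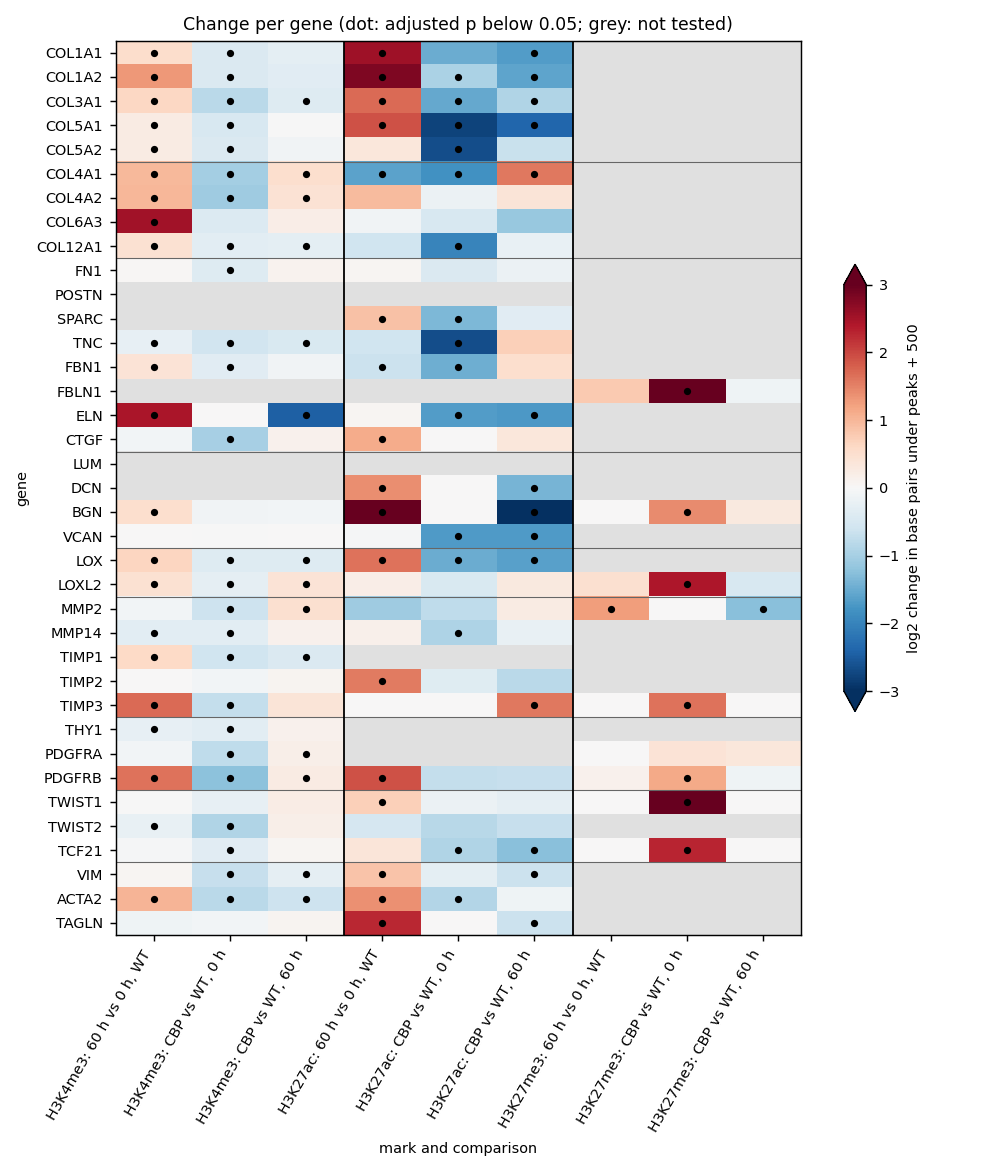
Log2 change in base pairs under peaks plus 500 for each placed gene (rows) in the 9 comparisons of a mark (columns), from blue (lower) to red (higher), with a dot where the adjusted p was below 0.05 and grey where the gene was not tested. The column of the inhibitor at 0 h is blue in H3K4me3 for 25 called genes, and at 60 h COL4A1 and TIMP3 stand out in red among the 12 called blue cells of H3K27ac.

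The difference between the inhibitor's effects at 60 h and at 0 h was tested in the same fits. In H3K4me3, 19 of 32 members had a higher value at 60 h and 1, ELN, a lower one, against 37.9% and 3.56% of all genes (41.5% in all). For COL4A1, COL4A2, PDGFRB, CTGF, MMP2, TIMP3, TWIST2, PDGFRA and LOXL2 the mean H3K4me3 length with the inhibitor was below that of WT at 0 h and above it at 60 h. Quantile scaling gave 7 higher and 3 lower, against 11% and 12.2% of all genes. Lists of equal peak number gave 14 and 1, against 31% and 3.78%. In H3K27ac, 5 members (COL4A1, TNC, COL5A2, FBN1 and TIMP3) had a higher value at 60 h and 3 (BGN, DCN and TAGLN) a lower one, against 11.5% and 18.9% of all genes (30.4% in all). Of members with a mean of at least 1 kb, 5 of 22 were called, against 24.1% of such genes. Without replicate 1 or replicate 2 of WT 60 h, 3 or 2 of these 8 were left. COL1A1, COL1A2, COL3A1, COL5A1, LOX, VCAN and ELN were not called, so their H3K27ac differences at 0 h and at 60 h were not shown to differ in size. Of these, COL1A1 was not called at 0 h. With lists of equal peak number COL1A2 and COL3A1 turned at 0 h and VCAN at both times. Quantile scaling gave 7 higher and 2 lower in H3K27ac, against 16.1% and 11.9% of all genes. Lists of equal peak number gave 9 and 2, against 13% and 20.9%. In H3K27me3, 6 of 9 members were lower in this contrast, against 53% of all genes (56.9% called in all), and 0 higher (3.95%), also at an unadjusted p below 0.05 in limma, and 5 of the 6 passed the filter only through 1 group. Quantile scaling gave 1 higher and 2 lower, against 11.6% and 7.68% of all genes. Without it, both members with a mean of at least 1 kb were called, against 67.6% of such genes.

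Other matrix genes were read from a second list of 81 names, of which 77 were found on a placed chromosome. Between 0 h and 60 h in WT, 42 of 74 rose and 3 fell in H3K4me3, and 32 of 68 rose and 6 fell in H3K27ac, against 42.2% and 5.85%, and 46.8% and 10.6%, of all genes. The H3K27ac share was 47.1%, close to that of all genes. SCX, a tendon transcription factor, went from 0.362 and 0.412 kb of H3K4me3 to 3.24 and 2.76 kb. FBLN2 had no H3K4me3 in WT 0 h, 1.081 and 1.095 kb in WT 60 h and none in CBP 60 h. MFAP2 (0.893 and 0.882 kb) and LOXL4 (0.753 and 0.678 kb) likewise had it in WT 60 h and not in CBP 60 h. With the inhibitor at 0 h, lengths were lower at 41 of 74 in H3K4me3 and 24 of 68 in H3K27ac, against 41.7% and 32.6% of all genes, with 0 higher at an adjusted or unadjusted p below 0.05. LAMB1, a laminin chain of the basement membrane, had 6.21 and 5.54 kb of H3K27ac in WT 0 h and 0.443 and 0.278 kb in CBP 0 h, and HSPG2, the basement membrane proteoglycan perlecan, had 5.84 and 4.40 kb and 1.08 and 0.876 kb. At 60 h, 5 rose and 16 fell in H3K4me3, and 3 rose and 24 fell in H3K27ac, against 10.3% and 7.36%, and 3.03% and 45.8%, of all genes. LOXL3, a relative of LOX, had 3.95 and 4.31 kb of H3K27ac in WT 60 h and none in CBP 60 h. PLOD1, which hydroxylates collagen lysines, had 2.03 and 2.62 kb and none. In H3K27me3, 8 of 10 (80%) were called higher with the inhibitor at 0 h, near the 77.2% of all genes, with MFAP2 and COL16A1 going from none to 9.69 and 6.33 kb and to 12.1 and 6.56 kb.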

How the data were processed

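The authors deposited 1 peak list per library, 24 in all. MACS2 2.1.0, Trimmomatic and Sscrofa11.1 are named in the submitters' processing notes, while the sources used here give no aligner, options, control or read depth. In the deposited lists the score column is the peak caller's display score, and the ratio column is its fold enrichment within that library. The deposited −log10 p and −log10 q columns give each peak's significance, and a further column of the narrow lists holds the summit offset. The 8 IgG samples were not analysed here.

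Peaks were merged within a list (Python 3.11.15, numpy 2.4.6, pandas 2.3.3), and only positions entered the lengths. Deposited −log10 p ranked peaks for lists of equal peak number, and −log10 q gave the stricter filter. Genes came from the RefSeq table of Sscrofa11.1, without strand. Limma 3.58.1 in R 4.3.3 (lmFit, eBayes with trend and robust) fitted each mark once over its 8 libraries, with 4 residual degrees of freedom, 4 contrasts and Benjamini-Hochberg adjustment over all genes tested in a contrast. The script was tested on simulated data. Alternatives changed the added constant, the filter, the scaling, the peak threshold, the window and the libraries used, or added a replicate block. The members and lists were chosen with earlier results of these data known. For each mark and contrast, up to 10 called members with the largest change and groups that do not overlap were named, and names of other matrix genes were taken from the 3 with the largest called change. Further names were chosen after their values were seen. No sequence is shown. Figures used matplotlib 3.10.9.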

Additional observations from a re-analysis of the deposited data

Results flagged for a closer look

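The inhibitor's effect on a member was called different at 60 h and 0 h in 24 named results. The call is from the limma test of the difference itself (adjusted p below 0.05). For some of these the filter had fixed the direction, so their values are a description and not a test result. They are ELN in H3K4me3, BGN, DCN and TIMP3 in H3K27ac, and TWIST1, LOXL2, TCF21, TIMP3 and MMP2 in H3K27me3. Values are the log2 effect at 60 h minus that at 0 h.

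In H3K4me3 the collagen IV chains COL4A1 (1.52) and COL4A2 (1.51), which share most of their peaks, the receptors PDGFRB (1.48) and PDGFRA (0.94), CTGF (1.12), the protease MMP2 (1.11), TIMP3 (1.10), TWIST2 (1.06) and LOXL2 (0.66) had the higher value at 60 h. ELN (-2.44) had the lower one, with H3K4me3 in WT 60 h alone. In H3K27ac, COL4A1 (3.40), TNC (3.37), COL5A2 (1.99), FBN1 (1.96) and TIMP3 (1.58) were higher, and BGN (-3.27), DCN (-1.40) and TAGLN (-0.65) were lower. H3K27ac at COL4A1 was called in opposite directions at the 2 times, with log2 changes of -1.82 at 0 h and 1.58 at 60 h, the first of which was not called with lists of equal peak number (-1.39).

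In H3K27me3, TWIST1 (-3.81), FBLN1 (-3.73), LOXL2 (-2.90), TCF21 (-2.28) and TIMP3 (-1.63) were longest in CBP 0 h, and MMP2 (-1.26) was listed in WT 60 h alone. The median of all genes in this mark was -1.81. At least 1 of the 4 groups had no listed base for ELN and PDGFRB in H3K4me3, for BGN, TIMP3, DCN and TAGLN in H3K27ac, and for the H3K27me3 genes other than FBLN1, so those sizes depend on the added 500 bp. ELN in H3K4me3, BGN, DCN and TIMP3 in H3K27ac and the H3K27me3 genes other than FBLN1 also passed the filter through 1 group only, which fixed their direction. Quantile scaling ended the calls of TIMP3 (0.61) and LOXL2 (0.38) in H3K4me3, DCN (-0.54) and TAGLN (-0.03) in H3K27ac, and LOXL2 (-0.76), TCF21 (-0.31), MMP2 (-0.46) and TIMP3 (0.15) in H3K27me3, and it left TWIST1 at -1.36 and FBLN1 at -1.68. Lists of equal peak number ended those of PDGFRB (0.87) in H3K4me3 and TAGLN (-0.48), peaks above a −log10 q of 5 those of PDGFRB (0.87) and FBN1 (1.49), peaks near the gene ends those of COL5A2 (0.90) and FBLN1 (-0.86), and a constant of 2000 bp that of TCF21 (-1.03). When 1 library was left out, the calls of COL5A2 and TAGLN in H3K27ac and of TCF21 in H3K27me3 were lost for 5, 6 and 6 of the libraries. Those of TNC in H3K27ac (3.29) and TIMP3 in H3K4me3 (1.07) were lost without replicate 2 of WT 60 h. That of TIMP3 in H3K27ac was lost without either WT 60 h library (1.58).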

How the results depend on the processing

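Of 93 named results, 47 kept direction and side of the threshold under every alternative in which the gene was still tested. Where a gene was no longer tested, that alternative was not counted. Lists of equal peak number thus covered 74 of the 93 results, the stricter q filter 75 and peaks near the gene ends 85. BGN in H3K27ac and TWIST1 in H3K27me3, for example, were not tested with equal lists. For members that passed the filter only through 1 group, being among the 47 is therefore no sign of stability. Of the 1034 alternatives of the 93 named results, 937 were alike, 90 lost the call (54 of them by leaving out 1 library) and 7 turned. With lists of equal peak number, H3K27ac turned for VCAN (0.03) and COL3A1 (0.45) with the inhibitor at 0 h and for VCAN at 60 h (0.18). With quantile scaling, H3K27me3 turned for TIMP3 (-0.25), BGN (-0.45) and PDGFRB (-0.53) with the inhibitor at 0 h and for TIMP3 in the difference of effects (0.15). In the order time in WT, inhibitor at 0 h, inhibitor at 60 h and difference of effects, called members numbered 22, 25, 14 and 20 in H3K4me3, 17, 15, 14 and 8 in H3K27ac, and 1, 7, 1 and 6 in H3K27me3.

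The counts that follow take in every member called under an alternative, including members not called before. Shares of all genes under the scalings are given by direction with each comparison. For the q filter and the replicate block they were not computed. Quantile scaling gave 15 H3K4me3 calls for the inhibitor at 0 h (12 of 25 lost) and 10 for the difference (12 of 20 lost). It gave 9 in H3K27ac at 0 h (7 of 15 lost). In H3K27me3 it gave 4, 4 and 3 for time, inhibitor at 0 h and difference, with 0 of 1, 5 of 7 and 4 of 6 lost. Lists of equal peak number gave 8 in H3K27ac at 0 h, where 7 of 15 were lost and 2 not tested. They gave 0, 2 and 2 in H3K27me3 for time, inhibitor at 0 h and difference, where 1, 5 and 5 called members were not tested. Of all genes, these lists gave 10.5% higher and 9.81% lower, 45% and 2.32%, and 7.75% and 40.7%, in that order. Keeping peaks from a −log10 q of 5 gave 13 for the H3K27ac difference and 0, 2, 0 and 2 in H3K27me3. Few H3K27me3 peaks outside CBP 0 h reached that q, so the H3K27me3 counts decide nothing there. Members with a mean of at least 1 kb, an alternative chosen after seeing the data, gave 9 in H3K27ac at 60 h and 5 for the difference, and 0, 2, 0 and 2 in H3K27me3, where fewer genes enter. The cause of the other shifts was not tested.

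Leaving out each library in turn gave 18 to 20, 22 to 26, 5 to 8 and 15 to 19 calls in H3K4me3, 10 to 15, 11 to 13, 9 to 18 and 2 to 10 in H3K27ac, and 0 to 1, 3 to 5, 0 to 0 and 3 to 5 in H3K27me3. The group with 1 library left is then assumed to vary like the others. Members with bases in that group alone were then no longer tested, so part of the lower counts was fixed by the filter. Without a WT 60 h library these were ELN in H3K4me3, DCN and BGN in H3K27ac and MMP2 in H3K27me3. Gene by gene, libraries with the same replicate number deviated together little (correlation of deviations -0.089 to 0.183). That does not settle whether the numbers pair them. In H3K27ac, replicate 1 covered more than replicate 2 in every group, as with 12.97 against 11.59 Mb in WT 0 h. The other marks showed no such order in every group. A replicate block gave 22, 25, 12 and 19 calls in H3K4me3, 18, 18, 18 and 10 in H3K27ac, and 1, 7, 1 and 6 in H3K27me3, and changed none of the 93 named calls. The sources used here give no depth, so a gene at 0 may be below what a list could call.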
